A study of Mus musculus with 20 samples.

Results

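The 8 genes Clec7a, Clec4n, Clec4d, Clec4e, Clec5a, Clec4a2, Clec4a4 and Clec12a encode C-type lectin receptors of myeloid cells, and they were chosen by name from the 50600 entries of each of 2 deposited expression tables. All 8 were listed in both tables. The tables hold RNA levels of eosinophils and macrophages sorted from the colon of C57BL/6 mice, measured by CEL-Seq, a method that reads the 3′ end of transcripts. The groups were eosinophils from within colonic tumors (7 libraries), eosinophils from naive colon (2 libraries), macrophages from within tumors (6 libraries) and macrophages from naive colon (5 libraries). Tumors had been raised by an induction that the labels call CAC, and the naive wild-type mice carry the disease label control. Nothing in the labels says whether libraries of a group came from separate animals, so p-values measure the spread between these libraries, which may be technical. Sorting markers, sex, age and the time after induction are not given.

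C-type lectin receptors bind sugars and lipids on microbes, and some also bind products of dying cells. The activating ones signal through an immunoreceptor tyrosine-based activation motif (ITAM), in their own tail or in the adaptors Fcer1g or Tyrobp, to the kinase Syk and the adaptor Card9 and on to NF-kB and cytokine genes. The inhibitory ones carry an immunoreceptor tyrosine-based inhibitory motif (ITIM) that recruits phosphatases. Clec7a (Dectin-1, a receptor for fungal beta-glucan), Clec4n (Dectin-2, for mannans), Clec4d (MCL), Clec4e (Mincle, for mycobacterial glycolipid and a protein of dead cells) and Clec5a (MDL-1, a partner of Tyrobp) are activating. Clec4a2 (DCIR), Clec4a4 (DCIR2) and Clec12a (MICL, a receptor for uric acid crystals) are inhibitory.

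All 8 genes lie on chromosome 6 (GRCm38, GENCODE M21). Clec4a4 (122990367 to 123024105, plus strand), Clec4a2 (123106428 to 123143999, plus), Clec4n (123229843 to 123247021, plus), Clec4d (123262111 to 123275265, plus) and Clec4e (123281789 to 123289870, minus) form a cluster of 299.5 kb. Clec12a (129342691 to 129365303, plus) and Clec7a (129461591 to 129472779, minus) sit at the ends of a second cluster of 130.1 kb. Clec5a (40574894 to 40585821, minus) stands alone. GENCODE lists Clec7a as a polymorphic pseudogene and RefSeq as protein coding, and the other 7 are protein coding in GENCODE. No exon of the 8 overlaps an exon of another gene. Of the runs of 50 bases in the last 500 bases of their transcripts, 8.96% of Clec4a2's also occur in Clec4a4 or Clec4b1. For Clec4n 1.10% occur in the predicted gene Gm44147, and for the other 6 the share was 0. Values of Clec4a2 and Clec4n could thus hold reads of those genes. A share of runs is not a share of reads, which was not measured.

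RefSeq's promoter table (GRCm38.p6) held entries for 6 of the 8 receptors, while Clec4n and Clec4a4 are only named here. Printed are the 250 bases before the transcript start of Clec7a and Clec4e, which were higher in tumor macrophages, and of Clec4a2, which was lower in tumor macrophages. Of the 2 starts listed for Clec7a, the one nearer the gene body is shown. Clec4a2's window lies inside the GENCODE gene, which has a start farther upstream. Capitals mark GAGGAA on either strand (TTCCTC on the other), a core bound by the myeloid factor PU.1, and TTGCNNAA on either strand, a core of C/EBP factors.
Clec7a (chr6:129472780-129473029, minus strand): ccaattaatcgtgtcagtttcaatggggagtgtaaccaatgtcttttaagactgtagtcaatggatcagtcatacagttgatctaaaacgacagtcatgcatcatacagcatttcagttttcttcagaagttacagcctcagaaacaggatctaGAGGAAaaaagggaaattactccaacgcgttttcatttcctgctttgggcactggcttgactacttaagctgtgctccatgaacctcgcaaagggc
Clec4e (chr6:123289872-123290121, minus strand): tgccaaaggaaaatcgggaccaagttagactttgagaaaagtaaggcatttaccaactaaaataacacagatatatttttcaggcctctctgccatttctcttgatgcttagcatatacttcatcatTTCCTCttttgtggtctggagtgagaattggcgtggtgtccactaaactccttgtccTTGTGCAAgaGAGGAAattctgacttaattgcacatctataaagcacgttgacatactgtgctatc
Clec4a2 (chr6:123122440-123122689, plus strand): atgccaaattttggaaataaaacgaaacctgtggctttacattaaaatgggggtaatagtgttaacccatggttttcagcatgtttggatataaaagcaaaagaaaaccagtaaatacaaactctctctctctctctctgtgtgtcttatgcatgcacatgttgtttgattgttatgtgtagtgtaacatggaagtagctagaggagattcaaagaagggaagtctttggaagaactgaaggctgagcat
GAGGAA occurred in 5 of the 6 receptor windows (Clec7a, Clec4d, Clec4e, Clec5a and Clec12a, but not Clec4a2), against 23.3% of all 32851 promoter windows of the same length. The match in Clec7a starts 96 bases before the transcript start, and the nearer of those in Clec4e starts 56 bases before it. TTGCNNAA occurred in Clec4e and Clec12a (9.56% of all windows), TGANTCA of AP-1 in Clec12a (6.75%) and TTCNNNGAA of STAT factors in Clec4a2 (7.02%). GAAANNGAAA of interferon regulatory factors, CACGTG and an NF-kB motif occurred in none of the 6 windows (2.98%, 6.02% and 5.0% of all windows). No overlap between different motifs was seen within the windows printed. These matches describe letters and show no binding.

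Depth was 1978466 to 8520874 reads in tumor eosinophils, 4452513 and 7469714 in naive eosinophils, 2289383 to 7636153 in tumor macrophages and 1477255 to 7945096 in naive macrophages. Macrophage markers (12 genes, on a scale shared by all libraries) summed to 4961 to 8607 in tumor eosinophils, 4817 and 6424 in naive eosinophils, 98111 to 140781 in tumor macrophages and 88047 to 119679 in naive macrophages. Eosinophil markers (12 genes) summed to 5337 to 55666, 13641 and 21119, 66.9 to 278 and 260 to 451 in the same groups. Neutrophil markers (13 genes) summed to 27147 to 87422, 38652 and 77799, 556 to 3817 and 211 to 316. In every eosinophil library the neutrophil sum was larger than the eosinophil sum. B and plasma cell markers (6 genes, with Igkc the highest) summed to 30174 to 70805, 23322 and 32970, 20944 to 236479 and 56351 to 268035. Sums of different lists are not shares of cells. Epx, an eosinophil granule peroxidase, was at 0 in tumor macrophages, and Prg3, a granule protein, in naive macrophages. Tumor eosinophil libraries 1, 2 and 3 stood apart, with epithelial marker sums (6 genes) of 27817, 27976 and 25076 against 9527 to 12587 in libraries 4 to 7, and with 25.1%, 34.9% and 35.2% of reads from mitochondrial genes against 15.2 to 23.9%. In the deposited values all 7 receptors detected in eosinophils were lower in each of those 3 libraries than in any of libraries 4 to 7. The receptor results and the list counts in eosinophils are therefore given with and without them. Because these are bulk samples, fewer cells of a type and less RNA per cell cannot be told apart.

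In eosinophils the activating receptors Clec7a, Clec4n and Clec5a were higher in tumors, with ratios of the group means of 14.8, 11.7 and 20.1. Clec4d and Clec4e were also above both naive libraries in all 7 tumor libraries but did not pass the threshold. The inhibitory Clec4a2 and Clec12a were not called. Of the 7 receptors that passed the filter on low values, 3 were called higher and 0 lower by limma at an adjusted p under 0.05, where 4.63% of the 12984 genes tested were called (2.42% higher and 2.21% lower). At an unadjusted p under 0.05, 5 of the 7 were higher and 0 lower. The median log2 change of the 7 was 2.1, against 0.01 over all genes tested.

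Clec7a had 565 to 2503 normalised reads in tumor eosinophils, with a median of 1537, against 99.8 and 111 in naive eosinophils. The lowest tumor library lay above both naive ones by a wide gap, and the naive pair was close together. The group means were 1559 ± 874 (SD, n = 7) in tumors and 105 ± 8.004 (SD, n = 2) in naive colon, a log2 change of 3.63 ± 0.57 (SE, adjusted p = 0.00484 by limma). Without naive library 2 the log2 change was 3.71 and the adjusted p was 0.0714, so the call rests on that library, and the number of all genes called was then 93 in place of 601.

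Clec4n had 465.8 to 1239 normalised reads in tumor eosinophils, with a median of 895, against 51.6 and 93.0 in naive eosinophils. All 7 tumor libraries were above both naive ones. Its log2 change was 3.50 ± 0.40 (SE, adjusted p = 0.00142 by limma), or 11.3-fold on the scale fitted. The change stayed between 3.08 and 3.91 when each library was left out in turn.

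Clec5a had 26.9 to 116 normalised reads in tumor eosinophils, with a median of 61.2, against 2.32 and 3.62 in naive eosinophils. The groups did not overlap, and the naive values stand for 4 and 3 reads. Clec5a passed the filter on low values through tumor libraries alone, so only a higher call was open to it. The log2 change was 3.79 ± 0.55 (SE, adjusted p = 0.00351 by limma). With so few naive reads the size depends on the pseudocount, at 3.97 with 0.5 and 2.88 with 5 added, and limma-voom did not call it (adjusted p = 0.331).

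Clec4e had 463 to 2303 normalised reads in tumor eosinophils, with a median of 1654, against 210 and 350 in naive eosinophils. Clec4d had 44.8 to 231 in tumor eosinophils, with a median of 168, against 24.4 and 37.4 in naive eosinophils. For both genes every tumor library was above both naive libraries, and tumor libraries 2 and 3 were the nearest to them. The log2 changes were 2.098 ± 0.58 for Clec4e (SE, adjusted p = 0.0610 by limma) and 2.04 ± 0.60 for Clec4d (adjusted p = 0.0749). Groups without overlap were common here: 17.1% of all genes tested separated in one direction or the other, and 7.32% were higher in every tumor library. Both genes passed when tumor library 2 was left out (adjusted p = 0.0249 for Clec4e and 0.0485 for Clec4d) or tumor library 3 (0.0464 and 0.0307).

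Among the inhibitory receptors, Clec4a2 had 54.5 to 143 normalised reads in tumor eosinophils, with a median of 91.9, against 111 and 229 in naive eosinophils. Clec12a had 91.0 to 241 in tumor eosinophils, with a median of 188, against 307 and 214 in naive eosinophils. The groups overlapped for both. Their log2 changes were −0.80 ± 0.44 (95% interval −1.75 to 0.16, adjusted p = 0.350 by limma) for Clec4a2 and −0.67 ± 0.40 (−1.53 to 0.19, adjusted p = 0.391) for Clec12a. Clec4a4 was at 0 reads in all 9 eosinophil libraries. For 3 reads over a group, the limit that a count of 0 allows is 0.0782 CPM in tumor eosinophils and 0.252 CPM in naive eosinophils, which covers counting error only.

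Without tumor eosinophil libraries 1, 2 and 3, 5 receptors were called higher and 0 lower. Clec4d then had a log2 change of 2.75 (adjusted p = 0.00214 by limma) and Clec4e of 2.84 (adjusted p = 0.000733), and those of Clec7a, Clec4n and Clec5a were 4.35, 3.90 and 4.31. Among tumor libraries, those 3 held the lowest values of every receptor detected, so leaving them out had to raise the tumor means. The added calls are thus no further support. The number of all genes called in that fit is not given here.

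With all 9 eosinophil libraries, 6 of 13 neutrophil markers were called higher in tumor eosinophils and 0 lower. Over all genes tested, 2.42% were called higher and 2.21% lower. Of the 13 neutrophil markers, 10 had a median of at least 10 jointly scaled reads in naive eosinophils, against 13 in tumor eosinophils. A lower call was hardly open to the rest. The sum of the neutrophil markers was 27147 to 87422 in tumor eosinophils, against 38652 and 77799 in naive eosinophils, mostly from Retnlg. Of the macrophage markers 4 of the 10 tested were called higher (C1qb, C1qc, Apoe and Lyz2) and 1 lower (Adgre1). Each of these 5 macrophage marker calls ended without naive library 2 (adjusted p of 0.145 to 0.304). Of 12 eosinophil markers 0 were called higher and 4 lower (Il1rl1, Siglecf, Il5ra and Ccr3), and of 9 monocyte markers 0 were called. Without tumor libraries 1, 2 and 3, 9 neutrophil, 3 macrophage, 3 monocyte and 3 eosinophil markers were called higher, and 0, 1, 0 and 2 lower, with C1qc no longer among them (adjusted p = 0.0707). The share of all genes called in that fit is not given here, and the shares above are those with all 9 libraries. The part of these cells in the receptor values was not tested.

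**Figure D1:**
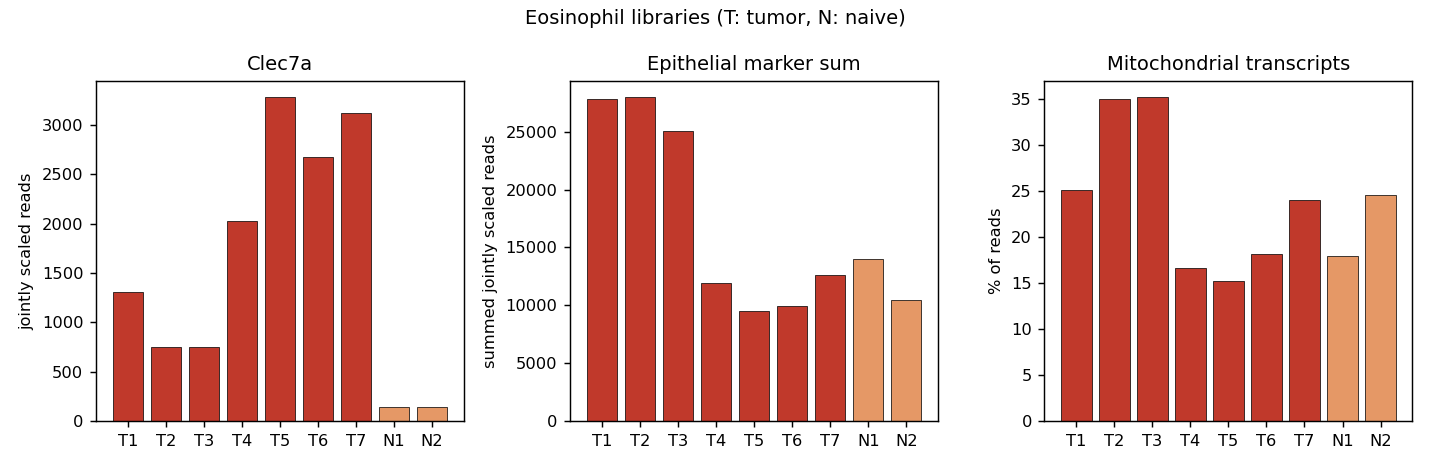
Clec7a level (jointly scaled reads), summed epithelial markers (jointly scaled reads) and share of mitochondrial reads (%) in each of the 7 tumor (T) and 2 naive (N) eosinophil libraries, 1 bar per library. T1 to T3 have the highest epithelial sums (25076 to 27976) and the lowest Clec7a of the tumor libraries, yet lie above both naive libraries for Clec7a.

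In macrophages all 7 receptors that passed the filter were called, which split them by sign: the 5 activating receptors were higher in tumors and the inhibitory Clec4a2 and Clec12a were lower. Of the 11536 genes tested, 17.1% were called (8.49% higher and 8.61% lower). The median log2 change of the 7 was 1.66, against 0.02 over all genes.

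Clec4d, which forms a receptor complex with Clec4e, had 131 to 382 normalised reads in tumor macrophages, with a median of 199, against 35.7, 34.8, 32.2, 46.6 and 27.3 in naive macrophages. Every tumor library was above every naive one. Its log2 change was 2.57 ± 0.25 (SE, adjusted p = 6.61e-06 by limma).

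Clec4e had 405 to 1393 normalised reads in tumor macrophages, with a median of 700.3, against 171, 103, 88.8, 161 and 91.1 in naive macrophages. The groups did not overlap, and tumor libraries 2, 5 and 6 were the highest. That is a log2 change of 2.54 ± 0.32 (SE, adjusted p = 5.91e-05 by limma).

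Clec5a had 149 to 317 normalised reads in tumor macrophages, with a median of 190.2, against 55.3, 70.1, 45.03, 89.4 and 21.3 in naive macrophages. No naive library reached the lowest tumor library. Clec5a changed by 1.96 ± 0.30 on the log2 scale (SE, adjusted p = 0.000316 by limma).

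Clec7a had 3228 to 7437 normalised reads in tumor macrophages, with a median of 4601, against 1689, 1330, 1458, 1744 and 1269 in naive macrophages. The groups were apart, with the naive libraries close together. This gave a log2 change of 1.66 ± 0.21 (SE, adjusted p = 5.40e-05 by limma).

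Clec4n had 1492 to 4049 normalised reads in tumor macrophages, with a median of 2255, against 1769, 732, 1661, 804 and 1378 in naive macrophages. Here the groups overlapped, and 4 of 6 tumor libraries were above all naive ones. The log2 change was 1.02 ± 0.30 (SE, adjusted p = 0.0298 by limma). This call ended when naive library 2 or 4 or tumor library 1, 2 or 5 was left out, with adjusted p of 0.0567 to 0.0832.

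Of the inhibitory receptors, Clec4a2 had 135 to 210 normalised reads in tumor macrophages, with a median of 153, against 264, 212, 296, 284 and 212 in naive macrophages. Every tumor library was below every naive one, with the highest tumor and lowest naive values nearly equal. The log2 change was −0.65 ± 0.16 (SE, adjusted p = 0.00973 by limma). Clec4b1, which may hold some of the 3′ sequence of Clec4a2, was lower as well, and reads shared between them were not measured.

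Clec12a had 40.2 to 90.2 normalised reads in tumor macrophages, with a median of 68.8, against 132, 119, 193, 107 and 69.8 in naive macrophages. Naive library 5 fell among the tumor values. The log2 change was −0.83 ± 0.25 (SE, adjusted p = 0.0344 by limma). Leaving out naive library 1, 2 or 3 or tumor library 1, 2 or 5 ended this call, with adjusted p of 0.0589 to 0.0944. Scaling to library totals, which moved the median of all genes by 0.21 on the log2 scale, ended both calls, with log2 changes of −0.44 for Clec4a2 (adjusted p = 0.0673) and −0.63 for Clec12a (adjusted p = 0.119).

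Clec4a4, the other inhibitory receptor of the cluster, had 0, 0, 2, 4, 0 and 2 reads in the tumor macrophage libraries, against 0, 2, 0, 5 and 0 reads in naive ones. These counts were too low to test. Of the receptors tested, 4 were higher in every tumor library than in every naive one and 1 was lower in every one, where 10.7% of all genes separated in one direction or the other. Neutrophil markers were called higher for 6 of the 10 tested and lower for 0, where 8.49% and 8.61% of all genes were. Of the list of 13, 5 had a median of at least 10 jointly scaled reads in naive macrophages, against 11 in tumor macrophages. Some of those tested thus passed the filter largely through tumor libraries, and a lower call was hardly open to them. The sum of the neutrophil markers was 556 to 3817 in tumor macrophages, against 211 to 316 in naive macrophages. The part of neutrophil RNA in the receptor values was not tested.

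**Figure D2:**
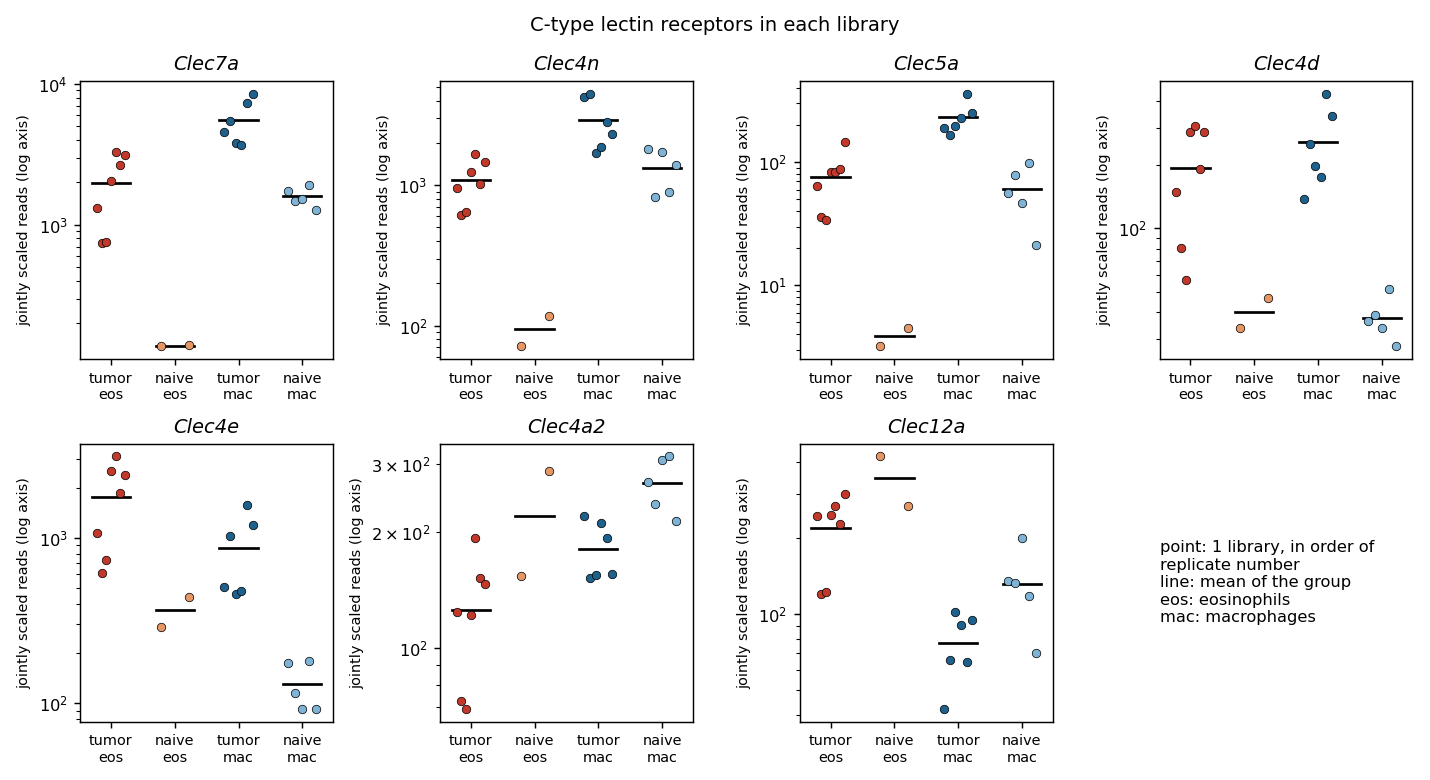
Level of 7 receptors in each library (points; lines are group means) in reads scaled together over all 20 libraries, on a log axis for each gene, with tumor and naive eosinophils (eos) left of tumor and naive macrophages (mac). Clec7a, Clec4n and Clec5a in naive eosinophils sit far below every other group, while Clec4e in tumor eosinophils has the highest group mean (1767).

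Whether the tumor change differed between the cell types was tested in a single model of all 20 libraries scaled together, as the change in eosinophils minus that in macrophages. The difference for Clec4n was 2.37 ± 0.51 on the log2 scale (SE, adjusted p = 0.00857 by limma), with a larger change in eosinophils. It was called as 1 of 7 receptors higher and 0 lower, where 4.16% of 14992 genes were called (1.87% higher and 2.29% lower). Clec7a had a difference of 1.86 ± 0.57 (95% interval 0.68 to 3.04, adjusted p = 0.0666) and Clec5a of 1.80 ± 0.61 (0.54 to 3.07, adjusted p = 0.0988), which did not pass.

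For the other 4 receptors the intervals held 0 and were wide. The log2 difference was −0.63 for Clec4d (95% interval −1.95 to 0.69), −0.55 for Clec4e (−1.94 to 0.84), −0.25 for Clec4a2 (−1.10 to 0.59) and 0.06 for Clec12a (−0.95 to 1.07). Signs this close to 0 turned under other settings. Without tumor eosinophil libraries 1, 2 and 3, 3 receptors were called higher: Clec4n at 2.77, Clec7a at 2.57 and Clec5a at 2.31. These libraries held the lowest tumor eosinophil values of all 3 genes, so leaving them out had to raise the differences. The number of all genes called in that fit is not given here. limma-voom called 0 receptors, with Clec4n at 2.49 (adjusted p = 0.193), while edgeR called Clec4n (2.46, adjusted p = 0.0175) and DESeq2 called Clec4n, Clec7a and Clec5a.

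**Figure D3:**
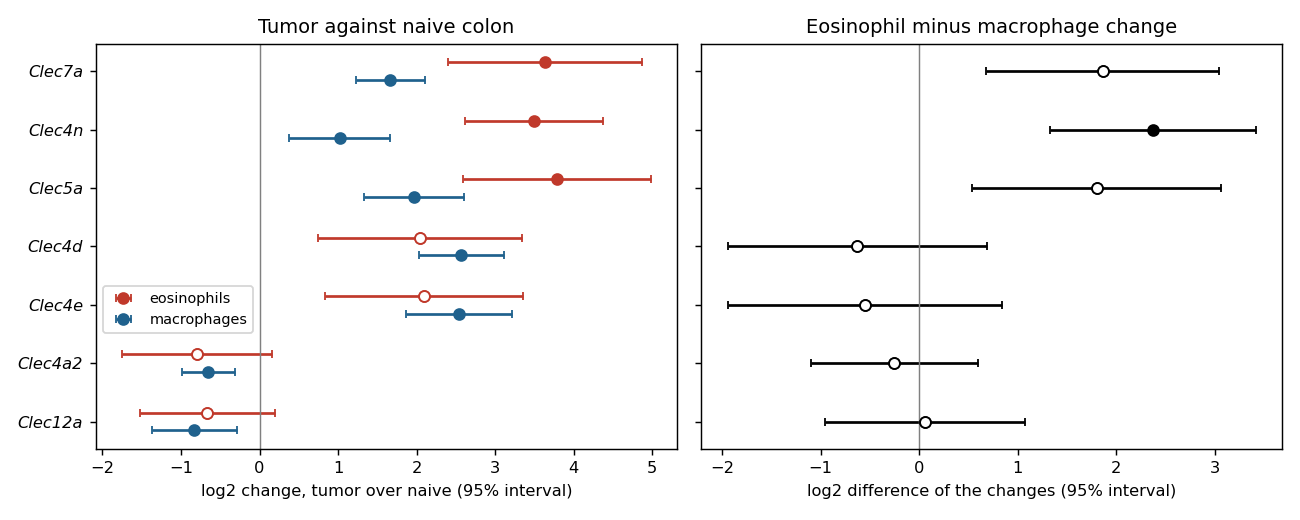
Left, log2 change of each receptor in tumor over naive colon in eosinophils (upper point of each row) and macrophages (lower point); right, eosinophil minus macrophage change from the joint fit. In both, bars are 95% intervals and filled points passed an adjusted p under 0.05, and Clec4n is the receptor whose difference was called, at 2.37.

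Set side by side within tumors, eosinophils had less Clec7a, Clec4n, Clec5a and Clec4a2 than macrophages and more Clec12a and Clec4e. These 6 of 7 receptors were called (2 higher and 4 lower in eosinophils), where 43.1% of genes were called (18.9% higher and 24.2% lower). Of 13 neutrophil markers, 11 were called higher in tumor eosinophils than in tumor macrophages and 0 lower. Their sums were 27147 to 87422 and 556 to 3817, and their part in the receptor differences was not tested. On the joint scale Clec7a averaged 1987 ± 1076 reads in tumor eosinophils and 5551 ± 1970 in tumor macrophages (SD, n = 7 and 6), a log2 difference of −1.63 ± 0.32 (SE, adjusted p = 0.000231 by limma). All 7 eosinophil libraries lay below all macrophage libraries. Clec4n averaged 1087 ± 399 against 2904 ± 1200 (log2 −1.40, adjusted p = 0.000329) and Clec5a 76.2 ± 37.6 against 233 ± 69.4 (log2 −1.70, adjusted p = 0.000308), again with no overlap. For Clec4n the highest tumor eosinophil library (1676) and the lowest tumor macrophage library (1688) were nearly equal. Clec12a ran the other way, at 219 ± 70.6 in tumor eosinophils and 76.7 ± 22.9 in tumor macrophages (log2 1.48 ± 0.27, adjusted p = 0.000124). The share of all genes that separated between the tumor groups was not counted.

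Clec4e averaged 1767 ± 981 joint reads in tumor eosinophils and 874 ± 468 in tumor macrophages, with overlap (log2 0.96 ± 0.37, adjusted p = 0.0421 by limma). Clec4a2 averaged 125 ± 44.2 in tumor eosinophils and 181 ± 30.7 in tumor macrophages, also with overlap (log2 −0.59 ± 0.23, adjusted p = 0.0390). Both calls were close to the threshold. That of Clec4a2 ended without tumor eosinophil libraries 1, 2 and 3 (log2 −0.18, adjusted p = 0.4995), and it also ended without any of tumor eosinophil libraries 1, 2, 3, 4 and 7, of the 6 tumor macrophage libraries or of naive macrophage libraries 1 to 4, with adjusted p of 0.0520 to 0.134. That of Clec4e ended without tumor eosinophil library 4, 5, 6 or 7, tumor macrophage library 1, 3 or 4, or naive macrophage library 5, with adjusted p of 0.0561 to 0.0846. Clec4d did not differ beyond its spread, at 194 ± 103 in tumor eosinophils and 256 ± 112 in tumor macrophages (log2 −0.52, 95% interval −1.25 to 0.21).

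Between the naive groups eosinophils had less Clec7a, Clec4n and Clec5a than macrophages. Naive eosinophils had 138 ± 1.45 joint reads of Clec7a and naive macrophages 1589 ± 249 (SD, n = 2 and 5), a log2 difference of −3.50 ± 0.47 (SE, adjusted p = 4.59e-06 by limma). For Clec4n the values were 93.8 ± 32.2 and 1328 ± 461 (log2 −3.78 ± 0.42, adjusted p = 2.95e-07), and for Clec5a 3.87 ± 0.96 and 60.5 ± 29.7 (log2 −3.51 ± 0.51, adjusted p = 1.10e-05). In all 3 cases both eosinophil libraries were below every macrophage library. How many of all genes separated in this comparison was not counted.

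Clec12a was higher in naive eosinophils, at 345 ± 109 joint reads against 132 ± 46.9 in naive macrophages (log2 1.43 ± 0.41, adjusted p = 0.00985 by limma). Clec4e was higher as well, at 364 ± 106 against 131 ± 43.2 (log2 1.503 ± 0.56, adjusted p = 0.0455). Without naive eosinophil library 1 the call of Clec12a ended (adjusted p = 0.103). That of Clec4e ended without either naive eosinophil library (0.0643 and 0.289) or without naive macrophage library 2, 3 or 5 (0.0648 to 0.105). Clec4d (log2 0.10, 95% interval −0.99 to 1.20) and Clec4a2 (log2 −0.34, −1.04 to 0.37) were not called. In the naive comparison 2 receptors were thus higher and 3 lower, where 30.2% of genes were called (14.7% higher and 15.5% lower). Of 13 neutrophil markers, 8 were called higher in naive eosinophils and 0 lower, and their part in the receptor differences was not tested. In naive macrophages 5 of these markers had a median of at least 10 jointly scaled reads, against 10 in naive eosinophils. A lower call was thus hardly open to some of them.

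Expressed as a share of the macrophage mean, Clec7a in eosinophils was 35.8% in tumors and 8.71% in naive colon, Clec4n was 37.4% and 7.07%, and Clec5a was 32.8% and 6.40%. Clec4d stood at 75.6% and 107%, Clec4a2 at 69.4% and 82.0%, Clec4e at 202% and 279%, and Clec12a at 286% and 262%. For 10 of the 12 macrophage markers, among them the complement genes C1qa, C1qb and C1qc, the lysozyme Lyz2 and the apolipoprotein Apoe, the share was 1.77 to 6.81% in tumors and 0.264 to 4.89% in naive colon. All 7 receptors had larger shares than each of these 10 markers in the same condition. The macrophage growth factor receptor gene Csf1r (20.97% in tumors and 25.9% in naive colon) and Adgre1 (108% and 338%) were the other 2 markers. In naive colon Adgre1 had a larger share than each of the 7 receptors, and Csf1r a larger one than Clec7a, Clec4n and Clec5a. In tumors Adgre1 had a larger share than every receptor except Clec4e and Clec12a. Except for Mertk, Csf1r and Adgre1, marker shares were also larger in tumors than in naive colon, as for C1qb (6.81% and 1.42%) and Apoe (4.09% and 1.26%). The part of macrophage RNA in the receptor values was not tested.

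**Figure D4:**
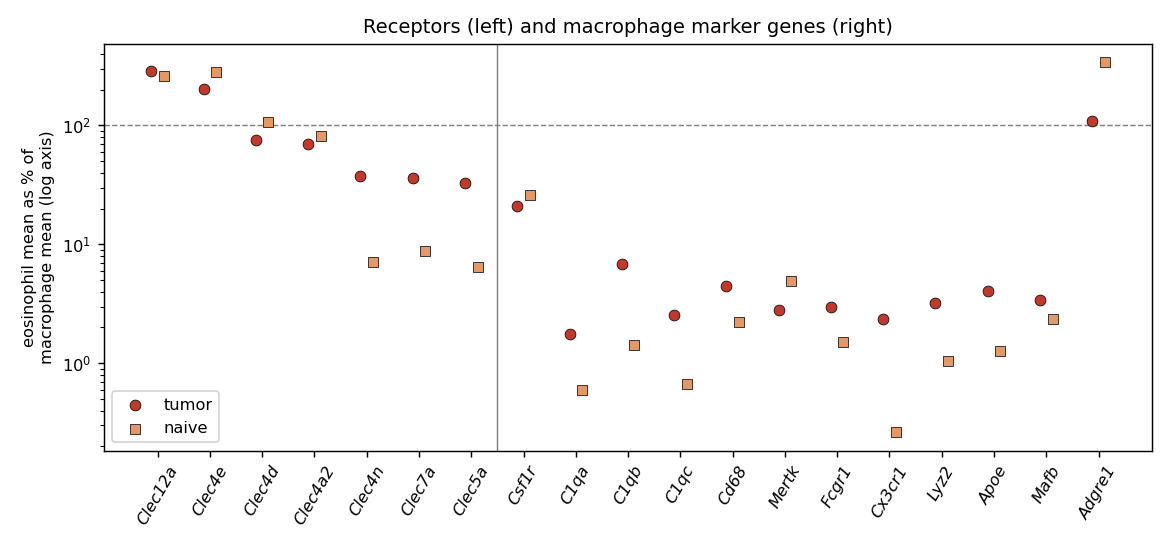
Mean level in eosinophils as a percentage of the mean in macrophages (log axis) for 7 receptors and 12 macrophage markers, in tumors (circles) and naive colon (squares), with a dashed line at equal means. Clec7a, Clec4n and Clec5a are near 35% in tumors and under 10% in naive colon, and C1qa, C1qb and C1qc stay under 7% in both.

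Both clusters held genes that were higher and genes that were lower in tumor macrophages. In the first cluster Clec4n, Clec4d and Clec4e lie next to each other and were higher in tumor macrophages. Clec4a2 and Clec4b1 lie before them and were lower. Clec4b1, a relative whose protein pairs with Fcer1g, averaged 9.93 normalised reads in tumor macrophages, against 119 in naive macrophages (log2 −3.70 ± 0.41, adjusted p = 2.06e-05 by limma). Its tumor median was 9.94, and the naive libraries alone carried it past the filter on low values. Clec4b2 was too low to test in either cell type. In the second cluster Clec7a was higher in tumor macrophages while Clec12a and Clec9a, a receptor for actin of dead cells on dendritic cells, were lower (Clec9a log2 −1.502 ± 0.40, adjusted p = 0.0166, and 0.0501 without naive library 3). Clec1b was tested in macrophages (log2 0.08) and Clec1a in eosinophils (log2 0.12), with neither called.

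**Figure D5:**
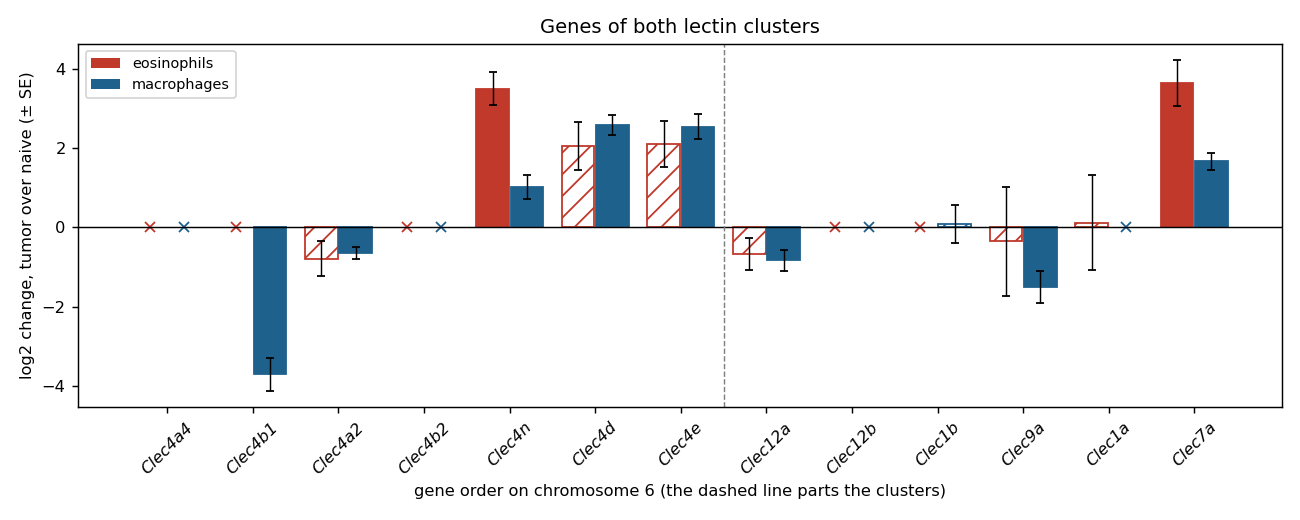
Log2 change in tumor over naive colon (bars, ± SE) for the genes of both lectin clusters in their order on chromosome 6, where filled bars passed an adjusted p under 0.05, hatched bars did not and crosses mark genes too low to test. Clec4n, Clec4d and Clec4e rise side by side in macrophages, next to Clec4a2 and Clec4b1, which fall.

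Over the 20 libraries, Clec7a and Clec5a followed each other most closely among the receptors (Pearson r = 0.965 on log2 joint values), then Clec4n and Clec7a (0.933), Clec4n and Clec5a (0.877) and Clec4d and Clec4e (0.872). Clec4e was only weakly related to Clec4n (0.198) and to Clec7a (0.360), and Clec12a ran against Clec4n (−0.660). These correlations include the differences between the 4 groups and describe the libraries, with no test. Among 12779 other genes, those most like Clec7a were Slc15a3 (0.983), a peptide transporter, Gpr84 (0.966), a fatty acid receptor, and Rab32 (0.954). Clec4n was nearest to Gpr84 (0.941), Slc15a3 (0.934) and Nlrp3 (0.927), and Clec5a to Il13ra1 (0.950), Slc15a3 (0.948) and Sirpb1c (0.941).

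Clec4e was nearest to Trem1 (0.958), an activating receptor that also uses Tyrobp, to Ifitm1 (0.949) and to Il1f9 (0.940). Clec4d was nearest to the mitochondrial superoxide dismutase Sod2 (0.957), Snx10 (0.941) and the haptoglobin gene Hp (0.930). Clec4a2 was most like Gng2 (0.906), Pip4k2a (0.887) and the ubiquitin ligase gene Cbl (0.885), and Clec12a like Ipcef1 (0.913), Unc119 (0.912) and Arhgap15 (0.899).

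Fcer1g, Tyrobp and Syk, which the activating receptors share, were not called in either cell type. Fcer1g averaged 3239 ± 1019 normalised reads in tumor eosinophils, against 2403 ± 184 in naive eosinophils (log2 0.36, 95% interval −0.41 to 1.139), and 4560 ± 545 in tumor macrophages, against 4333 ± 673 in naive macrophages (log2 0.08, −0.21 to 0.37). The log2 change of Tyrobp was −0.46 (−1.28 to 0.37) in eosinophils and 0.09 (−0.29 to 0.48) in macrophages, and that of Syk was 0.07 (−0.84 to 0.97) and 0.01 (−0.25 to 0.27). Syk and Tyrobp were higher in eosinophils than in macrophages, in tumors (log2 1.27 and 1.20) and in naive colon (log2 1.32 and 1.86), all called. The part of neutrophil RNA in these differences was not tested. Card9 was near 0 in every group, with at most 3.04 normalised reads in a library, and could not be tested.

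Of 13 ITAM adaptors and proximal kinases, 0 were called in tumor eosinophils (median log2 change 0.01, against 0.01 over all genes), with 2 at an unadjusted p under 0.05, and 0 were called without tumor libraries 1, 2 and 3. In tumor macrophages Src (log2 1.21) and Fgr (0.62), kinases of the Src family, were called higher and the exchange factor Vav3 (−0.72) lower (median 0.07, against 0.02). Over all genes tested, 2.42% were called higher and 2.21% lower in eosinophils, and 8.49% and 8.61% in macrophages. The eosinophil shares are of the fit with all libraries, and those without tumor libraries 1, 2 and 3 are not given here. Of 14 tested genes of the CARD9 complex and NF-kB, 0 were called in eosinophils, with 3 at an unadjusted p under 0.05 (median 0.10) and 1 called higher without tumor libraries 1, 2 and 3, and in macrophages the protease Malt1 was higher (1.03) and Nfatc2 lower (−1.62; median 0.24). Of 8 phosphatases and ubiquitin ligases that restrain the pathway, Tnfaip3 was lower in tumor eosinophils, at 332 ± 75.6 normalised reads against 831 ± 225 in naive eosinophils (log2 −1.32, adjusted p = 0.0253 by limma), a call that ended without tumor libraries 1, 2 and 3 (adjusted p = 0.0707), without naive library 2 (0.301) and by limma-voom (0.0565). In macrophages Cbl was lower (log2 −0.50, adjusted p = 0.0221), which ended without naive library 2 or 4 or tumor library 6 (0.0506 to 0.0632) and with scaling to library totals (0.253).

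Products that these receptors induce were called higher for 4 of 15 in tumor eosinophils and lower for 0, where 2.42% of all genes were called higher and 2.21% lower, with a median log2 change of 1.69 against 0.01 over all genes. Without tumor libraries 1, 2 and 3, 5 were called higher and 0 lower, in a fit whose share over all genes is not given here. Nlrp3, the inflammasome sensor, averaged 531 ± 233 normalised reads in tumor eosinophils, against 23.4 ± 0.59 in naive eosinophils (log2 4.32, adjusted p = 0.000905 by limma). Tnf (log2 3.43), Ccl4 (2.22) and Cxcl1 (2.08) were the others called. Without naive eosinophil library 2 the calls of Ccl4 (adjusted p = 0.156) and Cxcl1 (0.255) ended, and that of Ccl4 also without naive library 1 (0.116), while limma-voom called neither (0.0909 and 0.0792). In tumor macrophages 6 of 15 were higher (8.49% of all genes), among them the granulocyte growth factor Csf3 (3.26), Il23a (2.88) and Il1a (1.89), and 1 was lower (8.61% of all genes), the anti-inflammatory Il10 (−1.28), with a median of 0.55 against 0.02. Csf3 reached at most 5.75 normalised reads in naive macrophages. It passed the filter on low values through tumor libraries alone, so only a higher call was open to it. The eosinophil minus macrophage difference was called higher for 5 of 15 (Nlrp3 3.88, Tnf 2.78, Ccl4 2.65, Il10 3.01 and Cxcl1 1.71) and lower for 1 (Ptgs2 −2.90), where 1.87% of all genes were called higher and 2.29% lower. Il10 was low in eosinophils, with means of 7.15 normalised reads in tumors and 1.74 in naive colon.

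Other ITAM-coupled receptors called in tumor eosinophils were the IgG receptor Fcgr4 (log2 3.27) and Trem1 (2.44), both higher, of 8 tested (median 0.41). Fcgr4 had 3.48 and 7.25 normalised reads in naive eosinophils. It passed the filter on low values through tumor libraries alone, so only a higher call was open to it. The calls of Fcgr4 and Trem1 both ended without naive library 2 and by limma-voom (adjusted p = 0.328 and 0.112). That of Trem1 also ended without naive library 1 or tumor library 1, 4 or 7. Without tumor libraries 1, 2 and 3, 4 of this list were called higher and 0 lower. In macrophages 4 of 10 were called higher (Trem1 2.82, Trem3 2.11, Trem2 0.80 and Fcgr4 0.43) and 1 lower, with a median of 0.39. The call of Fcgr4 in macrophages ended without any 1 library other than naive 4 or tumor 2 (adjusted p of 0.0522 to 0.102) and with edgeR (0.0597). Of 9 other ITIM receptors, Siglecg was lower in tumor eosinophils (log2 −2.07) and in tumor macrophages (−1.29), while Cd300lf (2.37) and Pilra (0.60) were higher in macrophages (medians −0.12 and 0.14). The call of Siglecg ended in eosinophils without naive library 2 (adjusted p = 0.0548), and in macrophages without naive library 2, 3, 4 or 5 or tumor library 3, 4 or 5 (0.0555 to 0.0768). Without tumor eosinophil libraries 1, 2 and 3, 1 of these ITIM receptors was called higher and 1 lower in eosinophils. The median over all genes tested was 0.01 in eosinophils and 0.02 in macrophages. Of all genes, 2.42% were called higher and 2.21% lower in eosinophils, and 8.49% and 8.61% in macrophages. The eosinophil shares are of the fit with all libraries, and those without tumor libraries 1, 2 and 3 are not given here.

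Further C-type lectin receptors, a list of 25, were tested for 9 genes in eosinophils and 17 in macrophages. In tumor eosinophils 2 were higher and 0 lower (median log2 change 0.12): Clec4a3, at 31.7 ± 11.6 normalised reads against 3.24 ± 1.16 in naive eosinophils (log2 2.88, adjusted p = 0.00975 by limma), and Clec2d, a ligand of NK cell receptors, at 32.1 ± 27.3 against 0.58 ± 0.82 (log2 3.98, adjusted p = 0.0295). Without naive library 2 both calls ended (adjusted p = 0.125 and 0.324), as they did by limma-voom (0.352 and 0.684), and that of Clec2d ended without naive library 1 or tumor library 4 or 7 and with edgeR as well (0.0505 to 0.0567). Without tumor libraries 1, 2 and 3, 2 of the list were called higher and 0 lower. Clec4a3 and Clec2d passed the filter on low values through tumor libraries alone, so only a higher call was open to them. In tumor macrophages 12 were lower and 1, Olr1, a receptor for oxidised LDL, was higher (2.18), with a median of −1.32. Olr1 was named after its value was seen, and limma-voom did not call it (adjusted p = 0.0534). Cd209a, of the DC-SIGN family, averaged 3.76 ± 2.06 normalised reads in tumor macrophages, against 96.4 ± 40.3 in naive macrophages (log2 −4.40, adjusted p = 3.81e-06). Cd209f (−5.28), Cd209b (−4.41) and Mgl2, a galactose-binding lectin (−1.60), were lower too. In tumor macrophages Cd209a, Cd209b and Cd209f reached at most 6.91, 0.63 and 3.5 normalised reads. They passed the filter on low values through naive libraries alone, so only a lower call was open to them. The number called lower and the median of this list include such genes. Dendritic cell markers, with Cd209a among them, were called lower for 5 of 7 in tumor macrophages and summed to 408 to 1138 in tumor macrophages, against 414 to 1048 in naive macrophages. Their part in these values was not tested. Over all genes tested, 2.42% were called higher and 2.21% lower in eosinophils, and 8.49% and 8.61% in macrophages. The eosinophil shares are of the fit with all libraries, and those without tumor libraries 1, 2 and 3 are not given here.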

How the data were processed

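CEL-Seq libraries of sorted colonic eosinophils (7 tumor, 2 naive) and macrophages (6 tumor, 5 naive) were analysed. Per the labels' protocols, Trizol RNA of every sample entered library preparation in 3 technical replicates that differed in primer pool. The tools, per the submitters' processing notes, were HTSeq 0.6.1, DESeq2 1.14.1, TopHat2 2.1.0 and Bowtie2 2.2.6, with FastQC 0.11.5 and Trim Galore, and the build was GRCm38.p5. How those replicates were merged, any collapsing of molecular barcodes, the annotation and the use of strand are not given. The authors deposited a normalised signal of gene read counts for each library, 1 table per cell type, called normalised reads in the text. Every non-zero value (100% in each of the 20 libraries, within 0.1 read) was a whole multiple of what 1 read was worth in its library, which gave the reads and depth (1477255 to 8520874 per library). Names that are bare numbers (27 per table) had no more than 0.132% of the reads of any library and were not used.

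Because the tables held normalised values, limma 3.58.1 (R 4.3.3, eBayes with a trend, two-sided) on log2(value + 1) is the main test, fitted per cell type. Genes were kept at 10 or more in at least 2 eosinophil or 5 macrophage libraries. A gene low in 1 group could pass through the other group alone, and then only 1 direction could be called. Clec5a, Clec4a3, Clec2d and Fcgr4 in eosinophils and Csf3, Cd209a, Cd209b and Cd209f in macrophages, among others, passed in this way. Fold changes on this scale understate those of low genes. For comparisons across cell types, TMM factors computed over the recovered reads of the 20 libraries put them on 1 scale (jointly scaled or joint reads) and genes kept at 10 in at least 2 libraries. P-values were adjusted by the Benjamini-Hochberg method across every gene of a comparison, and a gene is called at under 0.05. The alternatives were pseudocounts of 0.5 and 5, no filter, another scaling, limma-voom with quality weights, edgeR 4.0.16 (quasi-likelihood) and DESeq2 1.42.0 on the recovered reads, each library left out, and the replicate number as a block. On those reads edgeR called 532 genes in eosinophils and 1949 in macrophages. The fit without tumor eosinophil libraries 1, 2 and 3 was chosen after seeing the data. It leaves out the lowest tumor eosinophil values of every receptor detected. The fits were tested on simulated data.

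The receptors and the gene lists were chosen with earlier results of these data known. The genes named are the 8 receptors, their neighbours within a cluster, Fcer1g, Tyrobp, Syk and Card9, at most 4 called genes of each list and comparison with the smallest p, and the 3 genes most alike each receptor (no predicted or ribosomal genes). Beyond these, all called induced products of the difference and some further cell type markers are named. Of the deposited names, 94.3% matched GENCODE M21. Promoter sequences are RefSeq's.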

Additional observations from a re-analysis of the deposited data

Results flagged for a closer look

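The tumor change of Clec4n differed between the cell types by the test of the difference itself, with a log2 difference of 2.37 between the change in eosinophils and that in macrophages (adjusted p = 0.00857 by limma). All 7 tumor eosinophil libraries were above both naive ones, and 4 of 6 tumor macrophage libraries were above all naive ones. With each library left out in turn the difference was 1.999 to 2.78. None of the 21 receptor-and-group sets of values tested held a library far from the rest of its group by Dixon's criterion. The naive eosinophil pair was too small for this criterion and was not among these sets.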

How the results depend on the processing

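In macrophages no receptor changed direction under any alternative run, and the same held for tumor against naive eosinophils. In eosinophils 3 receptors were called higher in tumors, but 5 with DESeq2 and 5 without tumor libraries 1, 2 and 3, and 2 to 5 with 1 library left out, with 0 called lower throughout. The fit without those 3 libraries leaves out the lowest tumor values of each receptor, which had to raise the changes. Over all genes in eosinophils, 601 were called, against 197 by limma-voom, 1384 by DESeq2 and 1130 with the replicate block. In macrophages 2 receptors were called lower, but 1 without a filter, 0 with scaling to library totals and 1 to 2 with 1 library left out, while 4 to 5 were called higher. That scaling moved the median of all genes by 0.18 in eosinophils and 0.21 in macrophages on the log2 scale.

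For the difference of the changes, 1 receptor was called higher, but 0 by limma-voom, 3 by DESeq2, 3 without tumor eosinophil libraries 1, 2 and 3, and 1 to 2 with 1 library left out. Over all genes 624 were called, against 141 by limma-voom, 1081 by DESeq2 and 405 without a filter. The sign turned without those 3 libraries for Clec4d (0.068), Clec4e (0.18) and Clec4a2 (0.12), and for Clec4d between tumor eosinophils and tumor macrophages (0.21). With 1 library left out it spanned 0 for Clec12a (−0.22 to 0.37) and Clec4a2 (−0.73 to 0.25) in the difference, and for Clec4a2 (−0.79 to 0.19) and Clec4d (−0.13 to 0.41) between the naive groups. No receptor was called in these turned values, and the cause was not tested.

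Between tumor eosinophils and tumor macrophages, 2 receptors were called higher, but 1 without a filter, 1 with the replicate block and 1 to 2 with 1 library left out, and 3 to 4 were lower. Between the naive groups 2 were called higher, but 1 without a filter, 1 with median-of-ratios scaling, 1 by limma-voom and 0 to 2 with 1 library left out, and 3 were lower in each such fit. limma-voom called 2557 genes there, against 4521.

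The correlation of deviations in same-numbered libraries was 0.128 and 0.124 between tumor and naive eosinophils (2 pairs), −0.31 to 0.06 between tumor and naive macrophages, −0.09 to 0.22 between the tumor groups and 0.03 for both pairs of the naive groups. The labels tie no numbers to an animal or batch, and the replicate numbers were not taken as pairs. With the replicate block, Clec12a had a difference of −0.17, Clec4e between tumor groups was no longer called (log2 0.84, adjusted p = 0.0568 by limma), and the number of all genes called was 1233 in macrophages, against 1972. The naive eosinophil group holds 2 libraries, so without one of them its spread rests on the other groups or the tumor libraries. Clec4a4 and Card9 had too few reads to test, and Clec5a had 4 and 3 reads in the naive eosinophil libraries. Why these counts were low was not tested.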
